A study of Mus musculus with 10 samples.

Results

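Glycerolipid acyltransferases, phospholipases and phosphatases build, cut and rebuild the glycerol-based lipids of a cell, from storage triglycerides to membrane phospholipids. Of the 25233 entries with a gene symbol in the expression table, which had 62322 entries in all, 62 were members of these families by symbol (Agpat, Gpat and *Gpam*, Lpin, Dgat, Mogat, Lpcat, Mboat, Pla2g, Plpp, Pld, *Lclat1* and *Lpgat1*). They fell into 8 roles, described below in the order in which a glycerolipid is made and then taken apart.

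Triglyceride synthesis starts with the acylation of glycerol-3-phosphate, goes on through lysophosphatidic acid, phosphatidic acid and diacylglycerol, and ends with a last acylation by a DGAT enzyme. Phospholipids leave the same route at phosphatidic acid or diacylglycerol, and their acyl chains are then exchanged by phospholipases A2, which remove them, and lysophospholipid acyltransferases, which put new ones back. Hepatic stellate cells are the vitamin A-storing pericytes of the liver sinusoid and keep retinyl esters together with triglycerides in lipid droplets.

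RNA was sequenced from 5 preparations of hypertrophied stellate cells (hypHSCs) and 5 of quiescent stellate cells (qHSCs), sorted from livers of C57BL/6J mice, with 1 library per preparation. Mice on the CDAHFD, a high-fat diet without choline that causes steatohepatitis, gave the hypHSCs: hypHSC 1 and 2 after 13 weeks at 19 weeks of age, and hypHSC 3, 4 and 5 after 12 weeks at 18 weeks of age. Mice on standard diet gave the qHSCs, at 36 weeks of age for qHSC 1, 2 and 5 and at 34 weeks for qHSC 3 and 4. Diet, age, liver digestion and sorting gate differed together between the groups, so their shares in a difference cannot be told apart, and since the mouse behind each library was not given, p-values measure the spread between preparations.

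The libraries held 30534719 to 43283589 reads on genes with a symbol in hypHSCs and 35640104 to 47317028 in qHSCs, and 3 reads, taken as the floor of detection, were worth 2.25 to 4.54 normalized counts (reads divided by the size factor of the library). The labelled cell type was checked against marker genes before any member was compared. All 12 stellate markers, such as *Dcn*, *Lrat* and *Reln*, were called lower in hypHSCs, where they summed to 31145.5 to 58983.1 normalized counts, against 1254965.7 to 2124526.0 in qHSCs. All 12 core macrophage markers, such as *Adgre1*, *Csf1r* and *Lyz2*, were called higher in hypHSCs, with sums of 1209590.7 to 1553292.5, against 5243.5 to 12025.2 in qHSC 2, 3 and 5, 44009.7 in qHSC 1 and 100611.7 in qHSC 4. The libraries labelled hypHSC thus went against their stellate label on both lists. Of the Kupffer cell markers 2 of 5 were called higher in hypHSCs, but their sums overlapped, at 14397.2 to 26273.6 against 1058.2 to 37358.5. The means of *Timd4* and *Clec4f* were lower in hypHSCs, at 17.8 against 504.7 and 4929.7 against 5952.7. Those of *Cd5l*, *Vsig4* and *Marco* were higher, at 7781.1 against 2453.3, 4897.3 against 2034.3 and 1160.7 against 660.6. Of 7 tested sinusoidal endothelial markers 2 were called higher and 2 lower. Of 2 tested B cell markers 1 was called higher, and of 2 tested T and NK cell markers none was called. All 5 neutrophil markers were called higher, with sums of 2031.1 to 8293.4 against 3.8 to 394.5. All 3 tested cholangiocyte markers were called higher as well, with sums of 435.8 to 2711.2 against 4.7 to 56.1. None of the 8 hepatocyte markers was called. Their sums were 10635.2 to 104969.3 in hypHSCs, highest in hypHSC 5, and 21561.7 to 77614.7 in qHSCs. In these bulk samples fewer cells of a type and less RNA per cell cannot be told apart, and the part of the macrophage and stellate transcripts in the differences below was not tested.

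Of the 62 members, 8 had no read in any library (*Pld5*, *Pla2g10os*, *Pla2g4e*, *Pla2g4d*, *Pla2g2a*, *Pla2g2f*, *Lpcat2b* and *Dgat2l6*), 13 had reads but fewer than 10 normalized counts in too many libraries to be tested, and 41 were tested. A gene was called when its absolute log2 fold change was at least 1 and its adjusted p at most 0.05 (limma on log2(normalized count + 1), Benjamini-Hochberg over all 14630 genes tested). Of the 41 tested members, 16 were called, beside 39.5% of all genes. Called higher in hypHSCs were 7 of the 41 tested members, or 17.1%, beside 17.8% of all genes tested. Called lower were 9, or 22.0%, beside 21.7% of all genes. The groups did not overlap in 7 members that were higher and 8 that were lower in hypHSCs, while 17.6% and 22% of all genes were separated in these directions, or 39.5% in either. The shares of called members were thus near those of the whole table, and the median log2 fold change was -0.36 over the members and -0.20 over all genes. What differed between the roles was the direction: called members were all lower among the glycerol-3-phosphate acyltransferases (3 of 4 tested) and the phospholipid phosphatases (3 of 6), and all higher among the phospholipases D (2 of 4), while 3 of 8 phospholipases A2 were higher and 1 was lower. No lipin and no diacylglycerol or monoacylglycerol acyltransferase was called. These counts by role are descriptions and were not tested against each other.

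**Figure D1:**
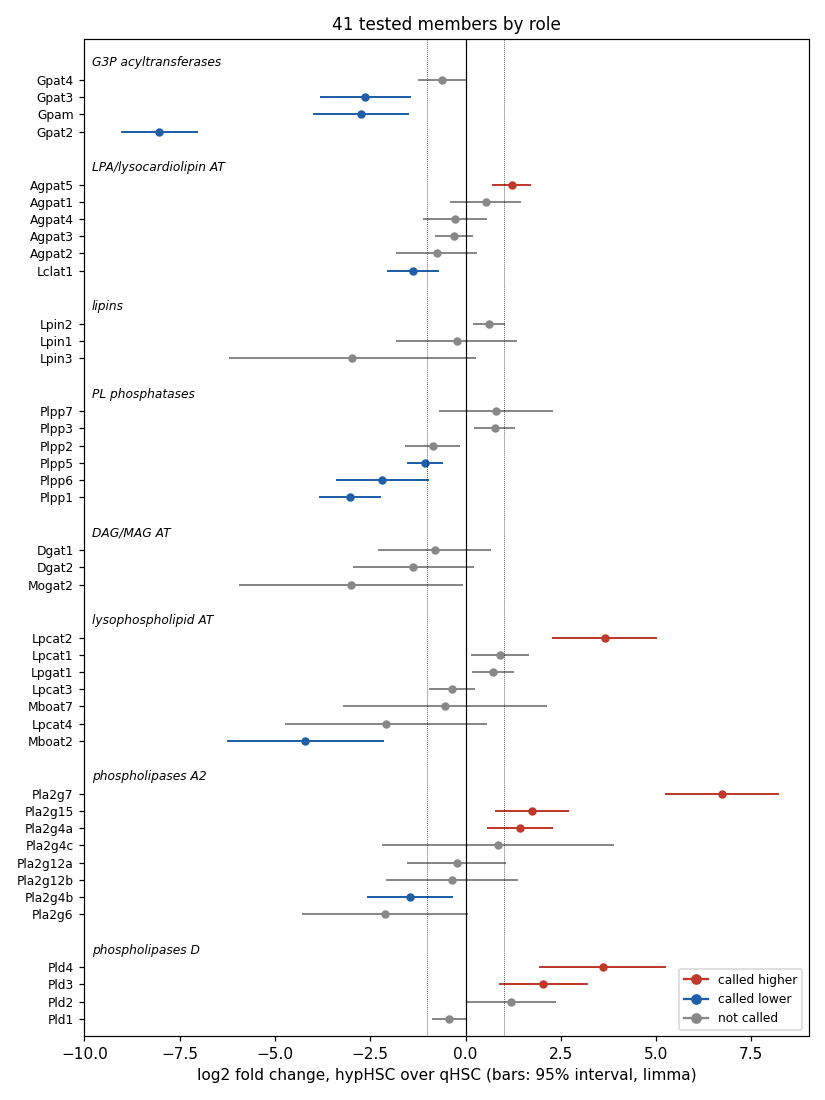
Log2 fold change of the 41 tested members, hypHSC over qHSC, with its 95% interval from limma, grouped by role; red marks members called higher, blue those called lower and grey those not called, and dotted lines stand at a log2 fold change of -1 and 1. *Gpat2* at -8.04 and *Pla2g7* at 6.73 stand at the ends of the range.

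The stretch before the transcription start is shown for the members with the largest fall and the 3 largest rises, which stand at the ends of the range of fold changes. The 250 bases before the start were taken from RefSeq promoters, which matched 51 of the 62 members, and each was found at 1 place on its chromosome in GRCm39, the build of the expression table. All 4 lie on the plus strand. Capitals mark matches to the motifs named below.
*Gpat2* (chr2:127266869-127267118): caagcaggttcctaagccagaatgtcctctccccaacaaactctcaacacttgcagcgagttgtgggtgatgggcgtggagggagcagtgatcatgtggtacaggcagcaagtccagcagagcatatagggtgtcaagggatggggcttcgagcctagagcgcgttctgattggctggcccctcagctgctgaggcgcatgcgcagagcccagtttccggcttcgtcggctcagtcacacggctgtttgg
*Pla2g7* (chr17:43879092-43879341): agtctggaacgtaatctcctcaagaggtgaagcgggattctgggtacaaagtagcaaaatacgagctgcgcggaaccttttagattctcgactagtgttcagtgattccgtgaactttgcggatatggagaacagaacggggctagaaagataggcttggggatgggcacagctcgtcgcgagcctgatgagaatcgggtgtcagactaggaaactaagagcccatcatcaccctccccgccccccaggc
*Lpcat2* (chr8:93581711-93581960): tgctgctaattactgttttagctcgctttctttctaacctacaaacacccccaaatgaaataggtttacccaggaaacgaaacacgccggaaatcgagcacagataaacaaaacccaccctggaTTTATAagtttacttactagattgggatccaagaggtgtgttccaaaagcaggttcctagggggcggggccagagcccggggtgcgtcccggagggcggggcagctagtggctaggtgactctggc
*Pld4* (chr12:112726839-112727088): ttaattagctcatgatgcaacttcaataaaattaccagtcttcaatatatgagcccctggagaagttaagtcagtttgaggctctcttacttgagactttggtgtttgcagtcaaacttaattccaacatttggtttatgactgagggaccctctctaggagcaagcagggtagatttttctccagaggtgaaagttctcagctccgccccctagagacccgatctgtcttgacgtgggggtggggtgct

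These windows were searched on both strands for 4 motifs: GAGGAA, the core bound by PU.1, the E-box CACGTG, the sterol element TCACNCCAC and TATAAA. Among the 4 sequences printed, the single match was TATAAA on the minus strand of *Lpcat2*, beginning 126 bases before the start. A member was counted when any of its promoter entries matched (63 entries for 51 members). The share over all promoters was counted per entry, so the 2 are not in the same unit. GAGGAA was found before 16 of the 51 members and in 23.3% of all 32851 promoters of the same length. Of the called members with a promoter entry, it was found in none of the 6 higher and in 2 of the 6 lower (*Gpam* and *Gpat3*). CACGTG was found before 3 of 51 members (6.02% of all promoters), TCACNCCAC before 1 (1.05%) and TATAAA before 3 (12.4%), of which *Lpcat2* and *Pla2g4a* were called. The RefSeq start of *Gpat2* lies 8119 bases inside the span that the table gives the gene, while those of the other 3 lie within 2 bases of the table's start.

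Glycerol-3-phosphate acyltransferases catalyse the first and rate-limiting acylation of the pathway, and 3 of the 4 members were called lower in hypHSCs. *Gpat2*, a mitochondrial isoenzyme best known from the testis (chr2:127259000-127278019), had 51.2, 18.6, 28.3, 27.3 and 6.05 normalized counts in hypHSC 1 to 5 and 6958, 7515, 5347, 4928 and 5409.8 in qHSC 1 to 5. Every qHSC library was thus far above every hypHSC library, and hypHSC 5 was the lowest. The log2 fold change was -8.04 ± 0.45 (SE), or 263-fold lower in hypHSCs (limma, adjusted p = 2.57e-07), and an exact two-sided permutation test over all arrangements of the libraries gave p = 0.00794, the smallest it can give with 5 libraries a group. The libraries keep no strand, and the GENCODE annotation places 60.8% of the exon bases of *Gpat2* in exons of *Fahd2a* on the other strand, although the spans of the table itself do not overlap. *Fahd2a* had 169 ± 85.9 (SD, n = 5) normalized counts in hypHSCs and 326 ± 36.3 in qHSCs, far below *Gpat2* in qHSCs.

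*Gpam*, the mitochondrial GPAT1 that supplies triglyceride synthesis in liver (chr19:55055700-55115670), had 124, 125, 96.5, 64.0 and 12.1 normalized counts in hypHSC 1 to 5. In qHSC 1 to 5 it had 377, 458, 454, 437 and 497. The groups did not overlap, the qHSC libraries were close together, and hypHSC 5 was far below the other hypHSC libraries, with a log2 fold change of -2.74 ± 0.56 (SE) (limma, adjusted p = 0.00206) that was -2.15 without hypHSC 5. *Gpat3*, an isoenzyme of the endoplasmic reticulum (chr5:100993996-101046968), had 16.2, 6.21, 27.4, 50.4 and 13.6 normalized counts in hypHSC 1 to 5 and 108, 160.2, 148, 77.9 and 115 in qHSC 1 to 5. All qHSC libraries were above all hypHSC libraries, hypHSC 4 was the highest of the hypHSCs and qHSC 4 the lowest of the qHSCs, and the log2 fold change was -2.63 ± 0.54 (SE) (limma, adjusted p = 0.00195). In GENCODE 37.5% of the exon bases of *Gpat3* are shared with antisense or overlapping noncoding genes, and the overlapping entry of the table had a mean of 9.30 normalized counts in hypHSCs and 135 in qHSCs, so reads on the shared bases are uncertain.

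*Gpat4*, the other isoenzyme of the endoplasmic reticulum, was not called: it had 2442 ± 869.6 (SD, n = 5) normalized counts in hypHSCs against 3554 ± 469 in qHSCs, which gave a log2 fold change of -0.63 ± 0.27 (SE) with a 95% interval of -1.22 to -0.03 (limma, adjusted p = 0.0798). It was the main GPAT transcript of hypHSCs. In FPKM, which divides the reads of a gene by its exon length and by the depth of the library, *Gpat4* held 90.2% to 95.4% of the summed GPAT level in hypHSCs and 21.3% to 28.1% in qHSCs, while *Gpat2* held 67.2% to 75.3% in qHSCs and 0.904% to 2.54% in hypHSCs. The summed FPKM of the family was 2.99 to 10.5 in hypHSCs and 44.8 to 65.7 in qHSCs, so that the groups did not overlap. The shares are descriptions and had no test.

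Acyltransferases of lysophosphatidic acid make phosphatidic acid. Of the 6 members 1 was called higher and 1 lower, or 16.7% each, near the 17.8% and 21.7% of all genes. *Agpat5*, a member found at mitochondria and the endoplasmic reticulum (chr8:18896295-18934429), had 881, 757, 657, 1176 and 1216 normalized counts in hypHSC 1 to 5 and 357, 377, 334, 421 and 495 in qHSC 1 to 5. The lowest hypHSC library, hypHSC 3, was above the highest qHSC library, and the log2 fold change was 1.21 ± 0.22 (SE) (limma, adjusted p = 0.00104). Its call was lost with *Hprt*, *Pgk1* and *Actb* as the reference for scaling (0.27), with the libraries scaled to the same total (0.86) and in hypHSC 1, 2 and 3 alone (0.95). *Lclat1*, which remodels the mitochondrial lipid cardiolipin (chr17:73414980-73550363), had 97.02, 112, 200.4, 149 and 80.2 normalized counts in hypHSC 1 to 5. In qHSC 1 to 5 it had 269.7, 365, 268, 343 and 354, all above the hypHSC libraries, and its log2 fold change was -1.38 ± 0.30 (SE) (limma, adjusted p = 0.00271). The difference was about as large in every setting that left out a library, from -1.56 to -1.23.

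The other 4 were not called. *Agpat4*, the most abundant of the role in qHSCs at 7.64 ± 0.895 FPKM and at 5.81 ± 3.05 in hypHSCs, had a log2 fold change of -0.27 with a 95% interval of -1.08 to 0.54. *Agpat1* and *Agpat2*, the main enzymes of this step in the endoplasmic reticulum, differed by 0.53 and -0.76 on the log2 scale, and *Agpat3*, which acts at the Golgi, by -0.31. For *Agpat2*, the gene mutated in a congenital lipodystrophy, the values ran from 66.5 to 442 normalized counts in hypHSCs and 242 to 557 in qHSCs, and hypHSC 5 alone was below every qHSC library. GENCODE gives 24.2% of its exon bases to the antisense neighbour *Egfl7* as well, although the spans of the 2 genes in the expression table do not overlap.

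Lipins remove the phosphate of phosphatidic acid to give diacylglycerol, and none of the 3 was called. *Lpin1* (chr12:16585670-16660968) had 56.6, 118, 168, 49.3 and 9.07 normalized counts in hypHSC 1 to 5 and 79.7, 114, 34.6, 79.6 and 47.2 in qHSC 1 to 5. The groups overlapped over most of their range, and the log2 fold change was -0.23 ± 0.71 (SE), with a 95% interval of -1.79 to 1.34 (limma, adjusted p = 0.811). *Lpin2*, the main liver lipin, was higher in every hypHSC library (1184 to 1938 normalized counts) than in any qHSC library (797 to 1089), but its log2 fold change of 0.61 ± 0.18 (SE) was below the threshold of the call (limma, adjusted p = 0.0155). *Lpin3* had 137, 130.4, 11.6, 0 and 0 normalized counts in hypHSC 1 to 5 and 148, 223, 163, 30.8 and 38.2 in qHSC 1 to 5, high in 2 hypHSC and 3 qHSC libraries and without a read in hypHSC 4 and 5. Its log2 fold change was -2.97 ± 1.46 (SE) (limma, adjusted p = 0.116). It was called without hypHSC 1 (-3.86) or hypHSC 2 (-3.84), in the hypHSCs at 12 weeks alone (-5.31) and with *Hprt*, *Pgk1* and *Actb* as the reference for scaling (-3.88). It was -1.11 by DESeq2 and -0.60 in hypHSC 1, 2 and 3 alone, neither of them called. In FPKM, *Lpin2* held 70.6% to 99.0% of the lipin level in hypHSCs and 48.5% to 84.6% in qHSCs.

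Phospholipid phosphatases (PLPPs) are membrane enzymes that dephosphorylate phosphatidic acid, lysophosphatidic acid and sphingosine 1-phosphate, many of them at the cell surface. Called lower in hypHSCs were 3 of the 6 tested, and none was called higher. *Plpp1* (chr13:112937311-113004426) had 438, 344, 268, 273 and 96.8 normalized counts in hypHSC 1 to 5 and 2133, 2640.5, 1863, 1576 and 2401 in qHSC 1 to 5. The lowest qHSC library was above 3 times the highest hypHSC library, and the log2 fold change was -3.03 ± 0.36 (SE), or 8.18-fold lower (limma, adjusted p = 4.8e-05, exact permutation p = 0.00794). Leaving out any library kept it between -3.23 and -2.69.

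*Plpp5*, an enzyme of the endoplasmic reticulum that also accepts diacylglycerol pyrophosphate (chr8:26210075-26214912), had 764, 521, 676, 534 and 702 normalized counts in hypHSC 1 to 5 and 1689.8, 1447, 1340.0, 940.4 and 1293 in qHSC 1 to 5. The groups did not overlap, and the log2 fold change of -1.06 ± 0.20 (SE) was just past the threshold (limma, adjusted p = 0.0012). Without hypHSC 2, hypHSC 4 or qHSC 1 it was -0.99, -0.999 and -0.97 and no longer called, nor with the same upper quartile (-0.94). *Plpp6*, which acts on polyisoprenyl diphosphates such as presqualene diphosphate (chr19:28941318-28944200), had 53.9, 8.28, 25.8, 10.5 and 42.4 normalized counts in hypHSC 1 to 5 and 92.3, 92.9, 115, 148 and 85.4 in qHSC 1 to 5. All qHSC libraries were above all hypHSC libraries, with a log2 fold change of -2.18 ± 0.55 (SE) (limma, adjusted p = 0.00679).

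*Plpp3*, the family member that degrades lysophosphatidic acid in vessel walls, went the other way without reaching the call. It had 504 to 794 normalized counts in hypHSCs and 224 to 430.1 in qHSCs, with no overlap and a log2 fold change of 0.77 ± 0.23 (SE) (limma, adjusted p = 0.018). *Plpp2* had a log2 fold change of -0.86 ± 0.32 (SE) (limma, adjusted p = 0.0441) and *Plpp7*, a family member of the nuclear envelope without known phosphatase activity, one of 0.80 ± 0.66 (SE) (limma, adjusted p = 0.345). Among the PLPP transcripts in FPKM, *Plpp1* held 46.9% to 52.8% in qHSCs and 7.35% to 21.3% in hypHSCs, and *Plpp3* held 5.38% to 7.71% in qHSCs and 23.9% to 33.8% in hypHSCs. The share of *Plpp5* was 25.3% to 33.5% in qHSCs and 25.9% to 47.4% in hypHSCs. The summed PLPP level was 31.8 to 48.1 FPKM in qHSCs and 8.75 to 15.9 FPKM in hypHSCs.

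**Figure D2:**
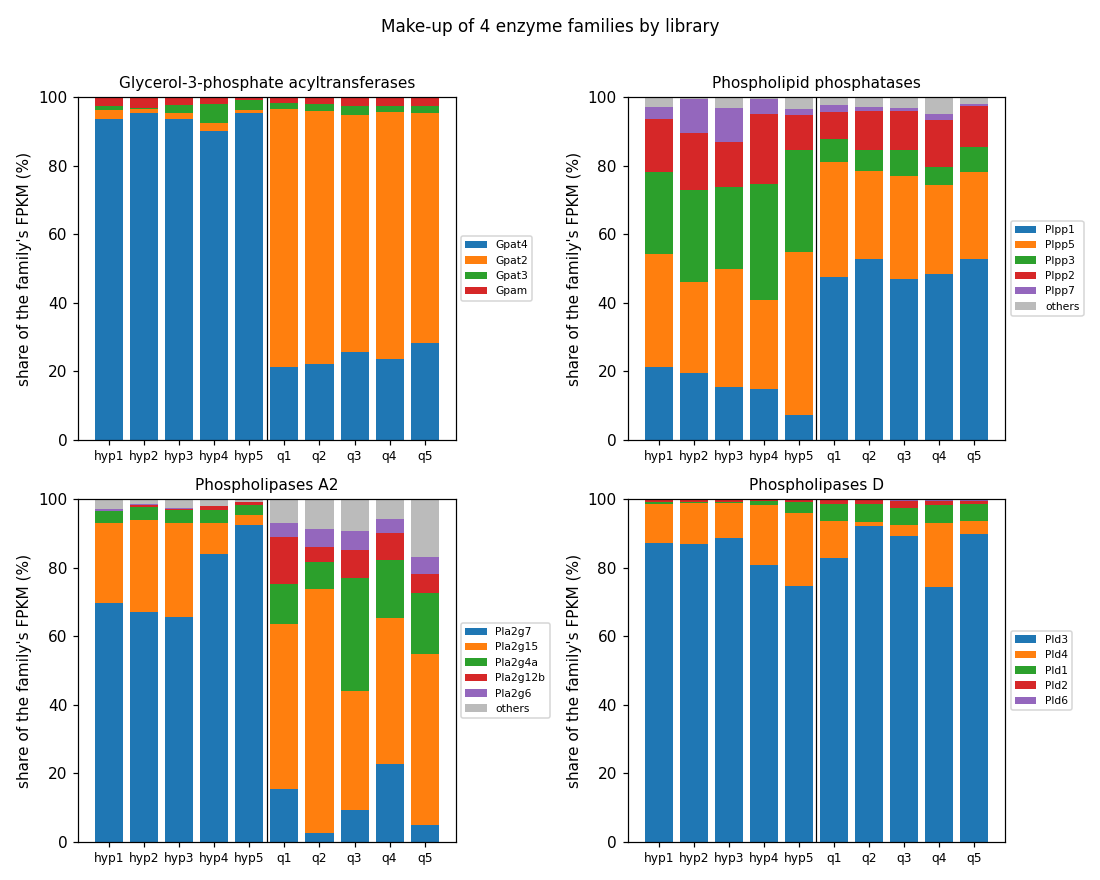
Share of each member in the summed FPKM of its family, in percent, for 4 families and for hypHSC 1 to 5 (left of the line) and qHSC 1 to 5 (right). *Gpat2* fills 67.2% to 75.3% of the GPAT bars in qHSCs and at most 2.54% in hypHSCs, and *Pla2g7* fills 65.6% to 92.5% of the phospholipase A2 bars in hypHSCs.

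Diacylglycerol acyltransferases make triglyceride, the last step of the pathway, and neither was called. *Dgat1* (chr15:76386208-76396194) had 245, 268, 319, 189 and 21.2 normalized counts in hypHSC 1 to 5 and 171, 208, 364, 300.4 and 370.1 in qHSC 1 to 5. Apart from hypHSC 5, the hypHSC libraries lay inside the range of the qHSC libraries, and the log2 fold change was -0.81 ± 0.66 (SE), with a 95% interval of -2.26 to 0.65 (limma, adjusted p = 0.338). In hypHSC 1, 2 and 3 alone it was 0.03. GENCODE places 54.6% of the 4551 exon bases of *Dgat1* in exons of the antisense gene *Hsf1* as well. The spans of the 2 genes in the expression table do not overlap, and 3144 of these exon bases lie within the span of *Dgat1*. The log2 fold change of *Hsf1* was -2.11 (limma, adjusted p = 0.0191), and whether reads of the 2 genes were mixed was not tested.

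*Dgat2*, the enzyme that is not related in sequence to *Dgat1* (chr7:98802865-98831925), was low in both groups. It had 41.8, 10.3, 4.99, 30.4 and 3.02 normalized counts in hypHSC 1 to 5 and 58.8, 22.1, 26.0, 33.4 and 31.5 in qHSC 1 to 5. The groups overlapped, with hypHSC 1 and 4 inside the qHSC range, and the log2 fold change was -1.37 ± 0.71 (SE), with a 95% interval of -2.92 to 0.19 (limma, adjusted p = 0.134). It was past the call without hypHSC 1 (-1.80) and was -0.94 without hypHSC 5. Per length, *Dgat1* was above *Dgat2* in every library, at 0.141 to 2.82 against 0.0113 to 0.181 FPKM in hypHSCs and 1.69 to 3.77 against 0.12 to 0.326 in qHSCs. Monoacylglycerol acyltransferases, best known from the intestine, were low in both groups. *Mogat2* had 35.3, 51.1, 46.5, 10.3 and 0 normalized counts in qHSC 1 to 5 and reads in 1 hypHSC library. Its log2 fold change was -3.01 ± 1.33 (SE) (limma, adjusted p = 0.0818), and it was called without hypHSC 4 (-3.99) or qHSC 5 (-4.01). *Mogat1* reached 0 to 24.1 in hypHSCs and 0 to 5.43 in qHSCs and was not tested.

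Lysophospholipid acyltransferases reattach fatty acids to lysophospholipids in the Lands cycle. *Lpcat2*, which makes phosphatidylcholine and platelet-activating factor in inflammatory cells (chr8:93581961-93645907), was the largest rise of the role. It had 435, 833, 665, 1379.6 and 991 normalized counts in hypHSC 1 to 5 and 127, 20.4, 31.5, 234 and 50.2 in qHSC 1 to 5. The groups did not overlap, and qHSC 1 and 4, the qHSC libraries with the most macrophage transcripts, were the highest of the qHSCs. The log2 fold change was 3.65 ± 0.62 (SE), or 12.5-fold (limma, adjusted p = 0.000584), and 4.61 against qHSC 2, 3 and 5 alone.

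*Lpcat3*, which favours polyunsaturated chains and is the main liver isoenzyme, was not called, at 1182 ± 431 (SD, n = 5) normalized counts in hypHSCs and 1434 ± 254 in qHSCs (log2 fold change -0.35, 95% interval -0.92 to 0.23). In GENCODE its exons share 55.6% of their 7956 bases with other genes, chiefly *Emg1*, which had 7026 and 6338 normalized counts in the groups. Of these bases 4893 lie within the span of *Lpcat3* in the expression table. That span ends at 124681679 and the span of *Emg1* begins at 124681334, so the 2 overlap only there. In the summed FPKM of this role *Lpcat3* held 55.7% to 72.4% in qHSCs and 25.5% to 46.0% in hypHSCs, and *Lpcat2* 0.821% to 10.4% and 18.1% to 39.1%. *Lpcat1*, known for surfactant lipid in lung, differed by 0.90 ± 0.34 (SE) on the log2 scale (limma, adjusted p = 0.0455; called without hypHSC 1 at 1.09 or qHSC 3 at 1.12), and *Lpgat1*, a lysophosphatidylglycerol acyltransferase, by 0.72 ± 0.24 (SE) (adjusted p = 0.029), with *Lpgat1* higher in every hypHSC library.

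*Mboat2*, an acyltransferase of lysophosphatidylethanolamine, was called lower at low counts: 0 to 25.6 normalized counts in hypHSCs and 18.8 to 95.9 in qHSCs. Its groups overlapped only through hypHSC 1, and the log2 fold change was -4.20 ± 0.93 (SE) (limma, adjusted p = 0.00324) and -4.98 without hypHSC 1. The related *Mboat1*, which was below the filter, had 102, 83.9, 68.2, 32.5 and 0 normalized counts in hypHSC 1 to 5 and at most 3.41 in qHSCs. *Lpcat4* and *Mboat7*, which puts arachidonate into phosphatidylinositol, had no read in hypHSC 4 and 5, and were not called (-2.09 and -0.53, adjusted p = 0.171 and 0.74 by limma). *Lpcat4* was called in the hypHSCs at 12 weeks alone (-3.58) and with *Hprt*, *Pgk1* and *Actb* as the reference for scaling (-2.99). *Mboat4*, which acylates the hormone ghrelin and not a lipid, had reads in 1 library of each group.

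Phospholipases A2 release a fatty acid from phospholipids, and of the 21 members 8 were tested, with 3 called higher and 1 lower. The largest rise of all members was *Pla2g7*, the secreted platelet-activating factor acetylhydrolase carried on lipoproteins (chr17:43879340-43923084). It had 11660.0, 14691, 13054, 22089 and 35038 normalized counts in hypHSC 1 to 5 and 393, 40.0, 174, 612 and 73.4 in qHSC 1 to 5. Every hypHSC library was far above every qHSC library, hypHSC 4 and 5 were the highest, and qHSC 1 and 4 were above the other qHSC libraries. The log2 fold change was 6.73 ± 0.67 (SE), or 106-fold (limma, adjusted p = 1.38e-05, exact permutation p = 0.00794), and 7.77 against qHSC 2, 3 and 5 alone. In GENCODE 10.7% of its exon bases are shared with other genes, of which *1700071M16Rik* on the other strand had 1769 ± 708 (SD, n = 5) normalized counts in hypHSCs and 26.4 ± 22.0 in qHSCs. At 129 ± 51.1 FPKM it ranked 373rd of 23185 genes in hypHSCs, and at 2.31 ± 2.15 FPKM 6604th in qHSCs.

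*Pla2g15*, the phospholipase A2 of the lysosome (chr8:106876986-106891350), had 3474, 5186, 4835, 2063 and 941 normalized counts in hypHSC 1 to 5 and 1069.8, 994, 580.2, 1005 and 643 in qHSC 1 to 5. The groups overlapped through hypHSC 5, which was below qHSC 1, 2 and 4, and the log2 fold change was 1.74 ± 0.43 (SE) (limma, adjusted p = 0.00641). In hypHSC 1, 2 and 3 alone it was 2.41, and with *Hprt*, *Pgk1* and *Actb* as the reference for scaling 0.81 and not called. *Pla2g4a*, the cytosolic enzyme that frees arachidonate for eicosanoid synthesis (chr1:149705372-149837041), had 1228, 1793, 1634, 2267 and 2331 normalized counts in hypHSC 1 to 5 and 639, 271, 1348, 987 and 563 in qHSC 1 to 5. The overlap came from qHSC 3, which was above hypHSC 1, and the log2 fold change was 1.44 ± 0.38 (SE) (limma, adjusted p = 0.00941). The call was lost with the same reference genes (0.50).

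The entry that joins *Pla2g4b* with *Jmjd7* and their read-through *Gm28042* was called lower, with 9.07 to 54.0 normalized counts in hypHSCs and 66.7 to 118 in qHSCs and a log2 fold change of -1.46 ± 0.50 (SE) (limma, adjusted p = 0.0329). Reads of the joined genes cannot be told apart, and the call was lost without hypHSC 1, qHSC 1, qHSC 2, qHSC 3 or qHSC 5 and by edgeR (-1.24). The calcium-independent *Pla2g6* was high in qHSCs (149 to 210.0) and split in hypHSCs, with 141, 208, 106, 4.20 and 7.56 normalized counts in hypHSC 1 to 5 (log2 fold change -2.12 ± 0.98 (SE), limma, adjusted p = 0.0953). It was called without hypHSC 2 (-2.69), in the hypHSCs at 12 weeks alone (-3.46) and with the same reference genes (-3.04). It was -0.99 by DESeq2, -0.97 by edgeR, -1.36 and -1.54 without hypHSC 4 or 5 and -0.33 in hypHSC 1, 2 and 3 alone. In none of these was it called. *Pla2g12a*, *Pla2g12b* and *Pla2g4c* overlapped between the groups, with log2 fold changes of -0.22, -0.36 and 0.85.

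Among the secreted and other low-level phospholipases A2, which were not tested, 4 had reads in hypHSCs and were at or below the floor of 3 reads in every qHSC library. *Pla2g2d*, a lymphoid tissue enzyme, had 12.1, 8.28, 54.9, 58.8 and 33.3 normalized counts in hypHSC 1 to 5, at least 13.4-fold higher on average than the floor of 3 reads per library. *Pla2g2e* had 55.2, 20.7, 8.32, 14.7 and 15.1 in hypHSC 1 to 5, highest in hypHSC 1. *Pla2g4f* had 71.4, 89.0, 0, 17.8 and 0 and *Pla2g5* 4.04, 21.7, 10.8, 0 and 0, so the reads of each came from 3 hypHSC libraries and most from hypHSC 1 and 2 or hypHSC 2 and 3. In the other direction, *Pla2g3* had no read in hypHSCs and 0, 35.8, 16.5, 9.41 and 22.5 normalized counts in qHSC 1 to 5, at least 4.86-fold lower in hypHSCs. Both bounds cover counting error only. *Pla2g10*, *Pla2g1b* and *Pla2g2c* had reads in at most 4 libraries, up to 42.0, 50.7 and 6.82 normalized counts.

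By length-corrected level the phospholipases A2 changed in make-up between the groups. *Pla2g7* held 65.6% to 92.5% of their summed FPKM in hypHSCs and 2.54% to 22.8% in qHSCs, where *Pla2g15* held 34.8% to 71.3% and *Pla2g4a* 7.94% to 33.1%. The sum was 117 to 229 FPKM in hypHSCs and 11.9 to 23.8 in qHSCs.

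**Figure D3:**
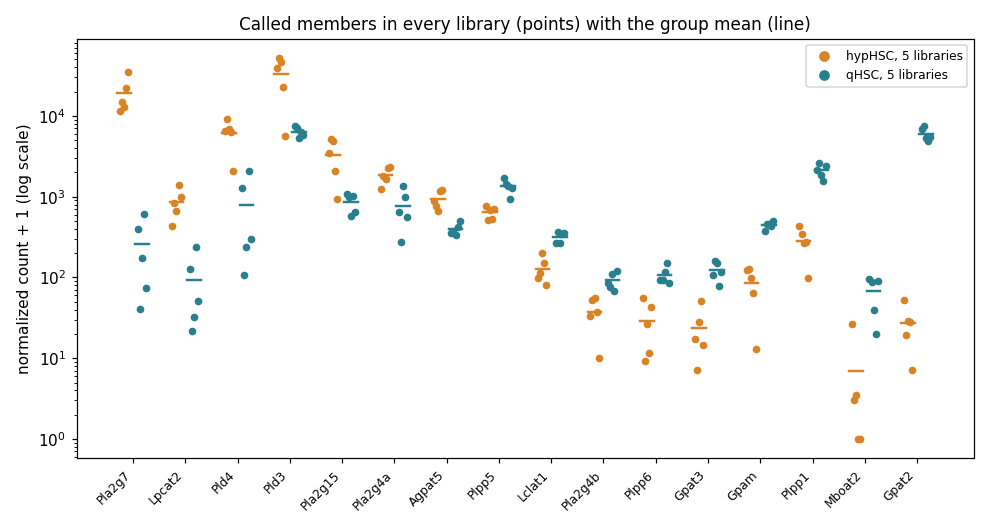
Normalized count + 1, on a log scale, of the 16 called members in every library (points: 5 hypHSC libraries in orange and 5 qHSC libraries in teal; line: group mean), ordered by log2 fold change. *Pla2g7* stands at 11660.0 to 35038 in hypHSCs and 40.1 to 612 in qHSCs, and *Gpat2* at 6.05 to 51.2 and 4928 to 7515.

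Classical phospholipases D, *Pld1* and *Pld2*, turn phosphatidylcholine into phosphatidic acid, whereas *Pld3* and *Pld4* are endolysosomal proteins of the same family that degrade single-stranded nucleic acids. It was *Pld3* and *Pld4* that were called. *Pld4* (chr12:112727088-112735421) had 6556, 9050.2, 6891, 6327 and 2062 normalized counts in hypHSC 1 to 5 and 1273, 107, 239, 2057 and 299 in qHSC 1 to 5. The groups did not overlap by a margin of under 5 normalized counts between hypHSC 5 and qHSC 4, and qHSC 1 and 4 were 7.74 times the mean of the other qHSC libraries. The log2 fold change was 3.60 ± 0.74 (SE) (limma, adjusted p = 0.00214), and 4.81 against qHSC 2, 3 and 5 alone.

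*Pld3* (chr7:27231072-27252643) had the highest mean level of the members in both groups, at 213 ± 131 FPKM in hypHSCs and 50.1 ± 7.43 in qHSCs. *Pla2g7* was above it in hypHSC 4 (142 against 131 FPKM) and hypHSC 5 (212 against 30.2 FPKM). *Pld3* had 39250.2, 52261, 46531, 22888 and 5634 normalized counts in hypHSC 1 to 5 and 7512, 7037, 5268, 6374 and 5773 in qHSC 1 to 5. hypHSC 5 lay inside the qHSC range while the other 4 hypHSC libraries were over 3 times the highest qHSC library, and the log2 fold change was 2.05 ± 0.52 (SE) (limma, adjusted p = 0.00717). In the hypHSCs at 12 weeks alone it was 1.52 and not called (adjusted p = 0.0506), and in hypHSC 1, 2 and 3 it was 2.85.

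Neither classical enzyme was called. *Pld1*, which sits on endosomes and Golgi, had 947 ± 197 (SD, n = 5) normalized counts in hypHSCs against 1266 ± 240.1 in qHSCs, a difference of -0.42 ± 0.20 (SE) on the log2 scale (limma, adjusted p = 0.104). *Pld2*, of the plasma membrane, had 511, 857, 686, 281 and 98.3 normalized counts in hypHSC 1 to 5 and 112 to 205 in qHSCs. With hypHSC 5 below every qHSC library, its log2 fold change was 1.20 ± 0.53 (SE) (limma, adjusted p = 0.0798), and it was called without hypHSC 5 (1.69) and by DESeq2 (1.52) and edgeR (1.55). *Pld6*, a mitochondrial family member, had reads in hypHSC 1 alone (6.74 normalized counts) and 1.70 to 23.96 in qHSCs. *Plpp4*, the remaining phosphatase, had reads in hypHSC 3 and qHSC 2.

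**Figure D4:**
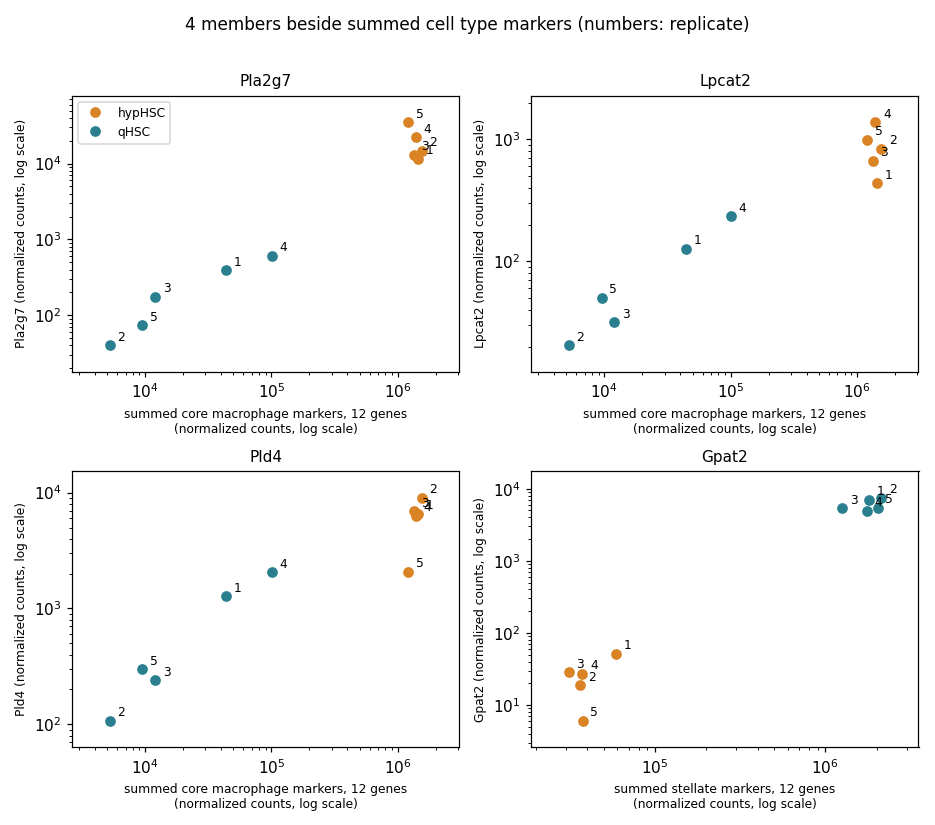
*Pla2g7*, *Lpcat2* and *Pld4* against the summed 12 core macrophage markers, and *Gpat2* against the summed 12 stellate markers, in normalized counts on log scales; each point is 1 library with its replicate number. In the qHSCs, libraries 1 and 4 are highest on both axes of the 3 macrophage panels, and in the *Gpat2* panel the hypHSC libraries sit at 6.05 to 51.2.

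Within the qHSC group, qHSC 1 and 4 had the highest core macrophage sums. Their Kupffer cell sums (16617.4 and 37358.5, against 1058.2 to 1620.0) and hepatocyte sums (77614.7 and 62594.4, against 21561.7 to 49832.0) were also the highest. Of the 41 tested members, 9 (*Dgat2*, *Lpin2*, *Lpcat2*, *Pla2g12b*, *Pla2g15*, *Pla2g6*, *Pla2g7*, *Pld1* and *Pld4*) were higher in both qHSC 1 and qHSC 4 than in qHSC 2, 3 and 5, as were 11.1% of all genes. The ratio of the mean of qHSC 1 and 4 to that of the others was 5.24 for *Pla2g7*, 5.30 for *Lpcat2* and 7.74 for *Pld4*, and between 1.20 and 2.79 for the other 6. Of the called-higher members, *Lpcat2*, *Pla2g7*, *Pla2g15* and *Pld4* showed this order, and *Agpat5*, *Pla2g4a* and *Pld3* did not. *Dgat2*, *Lpin2*, *Pla2g12b*, *Pla2g6* and *Pld1* showed it without being called, and no called-lower member showed it. Among hypHSCs, *Pla2g7* was highest in hypHSC 5 (35038), where the core macrophage sum was lowest (1209590.7). *Pld4* was highest in hypHSC 2 (9050.2), where that sum was highest (1553292.5). *Lpcat2* was highest in hypHSC 4 (1379.6), where the sum was 1399834.4. The part of macrophage, Kupffer cell and hepatocyte transcripts in these values was not tested.

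Members varied more among hypHSCs than among qHSCs. The median coefficient of variation of the tested members was 50.1% in hypHSCs and 26.6% in qHSCs (47.1% and 23.5% over all genes tested), and it was larger in hypHSCs for 33 of 41 members and for 79.2% of all genes. hypHSC 4 and 5 were both below hypHSC 1, 2 and 3 in 15 of the 41, beside 30.3% of all genes. GC content was taken from the longest annotated transcript. For the 11 members of at least 55%, the median deviation of hypHSC 5 from its group mean was -1.92 on the log2 scale, against 0.42 for the 5 below 45%. *Pld3*, *Pld2*, *Pla2g6* and *Lpcat4*, low in hypHSC 5, were among the 11. So was *Agpat1*, with 166 normalized counts in hypHSC 5 and a hypHSC mean of 171. After correction for GC content the calls of all 16 called members held.

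**Figure D5:**
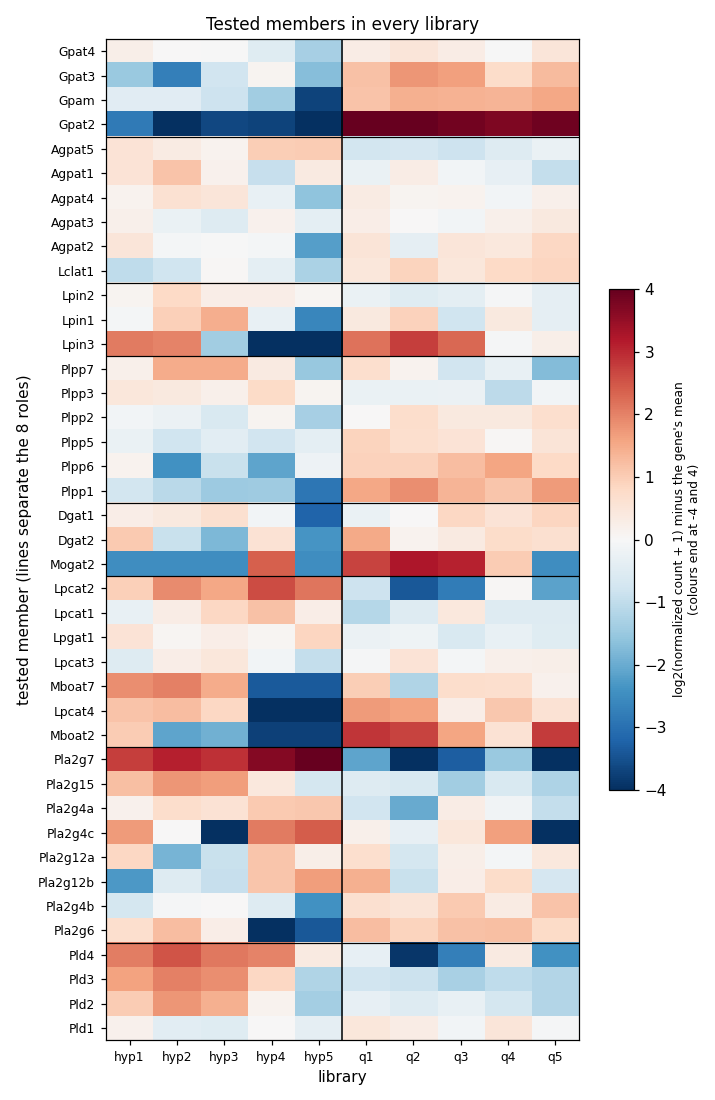
Values of the 41 tested members in every library as log2(normalized count + 1) minus the mean of the gene over the 10 libraries, with lines between the 8 roles; colours end at -4 and 4. *Lpin3*, *Mboat7*, *Lpcat4* and *Pla2g6* are low in hypHSC 4 and 5, and *Gpat2* and *Pla2g7* separate the groups.

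Other genes of glycerolipid metabolism, 51 in the table and 44 tested, were read in the same fit, and 10 were called higher and 7 lower in hypHSCs, or 22.7% and 15.9%, beside 17.8% and 21.7% of all genes. Of the genes that supply glycerol-3-phosphate and acyl-CoA, 1 of 7 was higher, glycerol kinase *Gk* (1.54 ± 0.22 (SE) on the log2 scale, limma, adjusted p = 0.000192), and the acyl-CoA synthetases *Acsl4* (-1.04) and *Acsl5* (-1.01) were lower. *Gk* acts upstream of *Gpam*, *Gpat2* and *Gpat3*, which were all lower. Among 13 genes that use phosphatidic acid or diacylglycerol, *Dgkg* (5.31) and *Dgkz* (1.97), which are diacylglycerol kinases, *Cds1* (2.58), which makes CDP-diacylglycerol, and the lipin phosphatase *Ctdnep1* (1.02) were higher, and the kinase *Dgka* (-1.26) was lower.

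In the lysophosphatidic acid axis, whose signal the PLPPs end, 3 of 9 genes were higher and 2 lower. These are 33.3% and 22.2%, beside 17.8% and 21.7% of all genes. The receptors *Lpar6* (3.12) and *Lpar5* (2.997) and the lysophospholipase D *Gdpd3* (1.603) were higher. The receptor *Lpar1* (-3.01 ± 0.30 (SE), limma, adjusted p = 1.29e-05) was lower. So was autotaxin, *Enpp2* (-2.91 ± 0.46 (SE), limma, adjusted p = 0.000363), which makes extracellular lysophosphatidic acid. Among the PLPPs, *Plpp1* was lower too, while *Plpp3* was higher in every hypHSC library but not called. Of the 4 tested partners of droplet assembly, *Fitm1* (-3.40) and *Fitm2* (-2.44) were lower, or 50.0%, beside 21.7% of all genes. Seipin, *Bscl2* (0.05), and *Tmem68* (0.04) were not called. Of 11 head group enzymes, *Pgs1* (1.44) and *Pcyt1a* (1.07), the rate-limiting enzyme of phosphatidylcholine synthesis, were higher and none was lower. The share called higher was 18.2%, near the 17.8% of all genes. Scaling on *Hprt*, *Pgk1* and *Actb* as the reference moved the median of all genes by -0.93. With it, 4 of 41 members were called higher and 22 lower, beside 1471 and 6988 of 14630 genes. Directions of members with small differences are thus relative to the deposited scaling.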

How the data were processed

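RNA-seq of 5 hypHSC and 5 qHSC preparations was analysed from the deposited table. According to their methods and notes, the authors sequenced unstranded paired 59-base reads, mapped them to mm39 (GRCm39) with STAR 2.7.5a and counted them per gene with featureCounts (Subread 1.5.0). They deposited a signal for each gene: its count over the library's DESeq2 size factor (a normalized count). Multiplying each column by its recovered factor gave whole reads (within 0.05) for 100% of values, which were used for depth, FPKM, DESeq2 1.42.0 and edgeR 4.0.16. Columns of values of no sample numbered 0.

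Entries with a symbol that reached 10 normalized counts in 5 or more libraries were tested with limma 3.58.1 (R 4.3.3, trend) on log2(normalized count + 1), with Benjamini-Hochberg adjustment. The fold change on that scale can differ from the ratio of the group means for low genes (for *Lpin3*, 7.84 against 2.16). Exact two-sided permutation tests used all arrangements. FPKM came from recovered reads, reads on genes with a symbol and GENCODE exon length within the span of each gene. Libraries of a group differed by more than sampling noise (chi-square per gene of 53.0 or more). The steps were tested on simulated data.

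Every member is named. Values in every library are given for the called members whose mean reached 100 normalized counts in 1 group, up to the 24 largest changes (14 met this), and for *Gpam*, *Gpat2*, *Lpin1*, *Dgat1* and *Dgat2*; other members shown by library were chosen after their values were seen. The members, gene lists and tests were chosen with earlier results of these data known. Alternatives changed the pseudocount, filter, scaling, test, block, diet weeks and each library. After the data were seen, 3 were added: hypHSC 1, 2 and 3 only, qHSC 2, 3 and 5 only, and a GC correction.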

Additional observations from a re-analysis of the deposited data

Results flagged for a closer look

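In 82 groups of 5 libraries, those of the 41 tested members in each group, 5 had 1 library whose gap to the nearest other library was over 0.71 of the whole range. The threshold is set to flag about 1 in 20 groups of 5 normally distributed values. The rate for normalized counts such as these, some with several zeros, was not estimated. *Mogat2* had 28.3 normalized counts in hypHSC 4 and none in the other hypHSC libraries. *Lpin2* was highest in hypHSC 2 at 1938 normalized counts, with 1184 to 1342 in the others. *Mboat2* was highest in hypHSC 1 at 25.6 normalized counts, with 0 to 2.49 in the others. *Lpcat1* was highest in qHSC 3 at 739 normalized counts, with 249 to 383 in the others. *Plpp3* was lowest in qHSC 4 at 224 normalized counts, with 387 to 430.1 in the others.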

How the results depend on the processing

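Of the 16 called members 10 kept their call in every one of the 26 alternatives that tested them and none turned, while 19 of 412 values lost it; *Gpat3*, *Mboat2*, *Plpp6* and *Pla2g4b* were not tested with a mean of at least 100. The members called higher numbered 7, and 4 with scaling on *Hprt*, *Pgk1* and *Actb*, beside 1471 of 14630 genes. Those called lower numbered 9. With a mean of at least 100 required they were 5 of 27 tested, beside 2351 of 10792 genes. With the reference genes they were 22, beside 6988 of 14630 genes. Leaving out 1 library gave 7 to 8 higher and 7 to 10 lower, beside 2432 to 2716 and 2809 to 3286 of 14630 genes. Other glycerolipid genes called higher numbered 10, and 6 and 3 under these 2 settings (9 to 12 without 1 library); those called lower numbered 7, and 11 with the same total, 4 with the upper quartile, TMM, edgeR or qHSC 2, 3 and 5 only, and 21 with the reference genes (5 to 9 without 1 library). Higher calls were 45% of all calls, 32.4% with the same total and 17.4% with the reference genes, where the median of all genes moved by -0.35 and -0.93.

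Signs turned in 14 members that were not called. With the reference genes the log2 fold change was -0.21 for *Lpgat1*, -0.037 for *Lpcat1*, -0.40 for *Agpat1*, -0.33 for *Lpin2*, -0.12 for *Plpp7* and -0.17 for *Plpp3*. DESeq2 and edgeR gave *Pla2g12b* 0.0102 and 0.0927, *Lpin1* 0.18 and 0.24, *Pla2g12a* 0.064 and 0.12, and *Mboat7* 0.71 and 0.71. In hypHSCs at 12 weeks *Pla2g12b* was 0.45 and *Pla2g12a* 0.0404, and a pseudocount of 5 gave *Mboat7* 0.0403. With hypHSC 1, 2 and 3 only, *Lpin1* was 0.66, *Dgat1* 0.0301, *Agpat4* 0.28, *Lpcat4* 0.0337, *Pla2g4c* -0.37 and *Mboat7* 1.52, and with qHSC 2, 3 and 5 only *Pla2g12b* was 0.24. Without 1 library, *Pla2g12b* ran from -0.83 to 0.16 (above 0 without hypHSC 1), *Lpin1* from -0.62 to 0.40 and *Agpat4* from -0.46 to 0.10 (hypHSC 5), *Pla2g12a* from -0.53 to 0.21 (hypHSC 2), *Pla2g4c* from -0.0765 (qHSC 5) to 1.98 and *Mboat7* from -1.10 to 0.24 (hypHSC 4 or 5). The cause was not tested.

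Replicate numbers did not pair the samples (same-number correlations of 0.0082 to 0.1293, and 1 of 5 libraries closest to its own number). With the replicate number as a block 8 members were called higher and 9 lower, beside 2557 and 3229 of 14630 genes. *Pld2* and *Lpin3* were gained and *Pla2g4b* was lost. Without the filter on low counts 54 members were tested, of which 10 were called higher and 11 lower, beside 2865 and 3392 of 19373 genes.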

Other observations

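Several members lie beside or within genes that were themselves expressed, and since the libraries keep no strand, reads on shared bases cannot be assigned by these data. *Mtrex*, whose span overlaps *Plpp1*, had 1198 ± 88.6 (SD, n = 5) normalized counts in hypHSCs and 2255 ± 294 in qHSCs (log2 fold change -0.90, limma, adjusted p = 0.000432). *Emg1*, which overlaps *Lpcat3*, had 7026 ± 1719 in hypHSCs against 6338 ± 795 in qHSCs (log2 fold change 0.12, limma, adjusted p = 0.641). *Egfl7*, next to *Agpat2*, had 50.5 ± 33.2 and 614 ± 71.9 (log2 fold change -4.50, limma, adjusted p = 0.00435). *Agpat2* itself had 281 ± 135 in hypHSCs and 421 ± 114 in qHSCs.

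Across all genes whose longest annotated transcript had a GC content of at least 55%, the qHSC libraries had a median deviation from the group mean between -0.09 and 0.09. In hypHSC 1 to 5 it was 0.47, 0.51, 0.39, -0.19 and -0.96 on the log2 scale. The 11 members in that class followed the same order at the low end, with 0.41, 0.997, 0.76, -0.19 and -1.92 in hypHSC 1 to 5. Mitochondrial entries held 2.21% to 12.8% of the reads in hypHSCs and 1.25% to 1.61% in qHSCs. The part of these library properties in the differences between the groups was not tested.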
